A study of Mus musculus with 18 samples.

Results

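Expression of 10 immune checkpoint genes was followed in mouse peripheral nerve, benign nerve tumours and malignant nerve tumours. The genes were picked by name: the receptors Pdcd1, Ctla4, Lag3, Havcr2 and Tigit, and the surface ligands Cd274, Pdcd1lg2, Cd276, Vtcn1 and Vsir. All 10 were found among the 51290 genes of the deposited table of estimated counts. RNA was sequenced from 18 samples, 6 in each of 3 groups. The malignant peripheral nerve sheath tumours (MPNST) came from mice with both Nf1 and Arf floxed (Nf1 flox/flox Arf flox/flox) and PostnCre+. The plexiform neurofibromas were trigeminal nerves of mice that were Nf1 flox/flox and PostnCre+, with unmodified Arf as far as the labels say. The normal nerves were trigeminal nerves that were Nf1 flox/flox and PostnCre-, so the controls carried the floxed Nf1 alleles without the recombinase. The Postn promoter drives Cre in Schwann cell precursors and other cells that express Postn, and whole tissue was sequenced, so the libraries also hold RNA of cells without recombination. The labels give neither age nor sex for any group, and no body site for the MPNST.

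Checkpoint receptors sit mainly on T cells and other lymphocytes and restrain them when bound by their ligands. PD-1, encoded by Pdcd1, is bound by PD-L1 (Cd274) and PD-L2 (Pdcd1lg2), while CTLA-4 competes with CD28 for CD80 and CD86 on antigen-presenting cells. TIM-3 (Havcr2) and VISTA (Vsir) are also made by myeloid cells, and B7-H3 (Cd276) and B7-H4 (Vtcn1) are B7 family proteins found on many non-immune and tumour cells. Interferon gamma, released by activated lymphocytes, is a textbook inducer of Cd274.

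Libraries held 13886399 to 23652959 counts in MPNST, 15307987 to 20056513 in neurofibroma and 14303986 to 20335697 in nerve. Levels are given as CPM, the count scaled to the total of its library, and 3 counts, the most that a count of 0 allows, correspond to 0.127 to 0.216 CPM across libraries. The labels mark the trigeminal libraries, and not the MPNST, as reused from an earlier series, so sequencing batch, body site and tumour type cannot be told apart in the MPNST comparisons. The MPNST libraries were unlike each other: summed Schwann cell markers ran from 67.2 to 1350 CPM in MPNST, from 6550 to 11100 CPM in neurofibroma and from 2820 to 6630 CPM in nerve. Sox10, a Schwann lineage transcription factor, was detected in every library, at 5.32 to 248 CPM in MPNST, 129 to 257 CPM in neurofibroma and 69.4 to 168 CPM in nerve. Summed sensory neuron markers stood at 2670 CPM in MPNST 6, below the 4320 to 6070 CPM of neurofibroma and the 3710 to 6690 CPM of nerve. Of that list, Scn10a, Calca, Pou4f1 and Trpv1 reached at most 1.14, 2.68, 1.97 and 1.44 CPM in any MPNST library. MPNST 2 held 256000 CPM of salivary gland markers, of which Bpifa2 made up 235000 CPM. MPNST 3 held 45100 CPM of skeletal muscle markers, and MPNST 6 held 3640 CPM of sympathoadrenal and 2640 CPM of pancreatic acinar markers. Results that rest on MPNST are therefore also given without libraries 2, 3 and 6 where that changes them.

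Havcr2, Lag3, Vsir and Cd276 were higher in MPNST than in neurofibroma and nerve, Vtcn1 was higher in neurofibroma than in either of the other groups' libraries, and Cd274 showed no difference past the threshold in any comparison. In edgeR's quasi-likelihood test, with a Benjamini-Hochberg adjusted p below 0.05 over all tested genes as the threshold, 5 of the 6 members that passed the filter on low counts were called between MPNST and neurofibroma, 4 higher and 1 lower. In that comparison 42.0% of all 16537 tested genes were called, 25.3% higher and 16.8% lower. Between MPNST and nerve 4 of 5 tested members were called, all higher, where 46.0% of 16384 genes were called and 27.6% were called higher. Between neurofibroma and nerve 1 of 6 tested members was called, where 13.9% of 16464 genes were called and 7.94% were called higher. The median log2 change of all tested genes was 0.22 in both MPNST comparisons, so member changes of about 2 and more stand above that shift. Pdcd1, Pdcd1lg2, Ctla4 and Tigit had too few counts for the filter in every comparison. Vtcn1 had too few between MPNST and nerve and passed elsewhere mainly through neurofibroma, where it was highest.

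**Figure D1:**
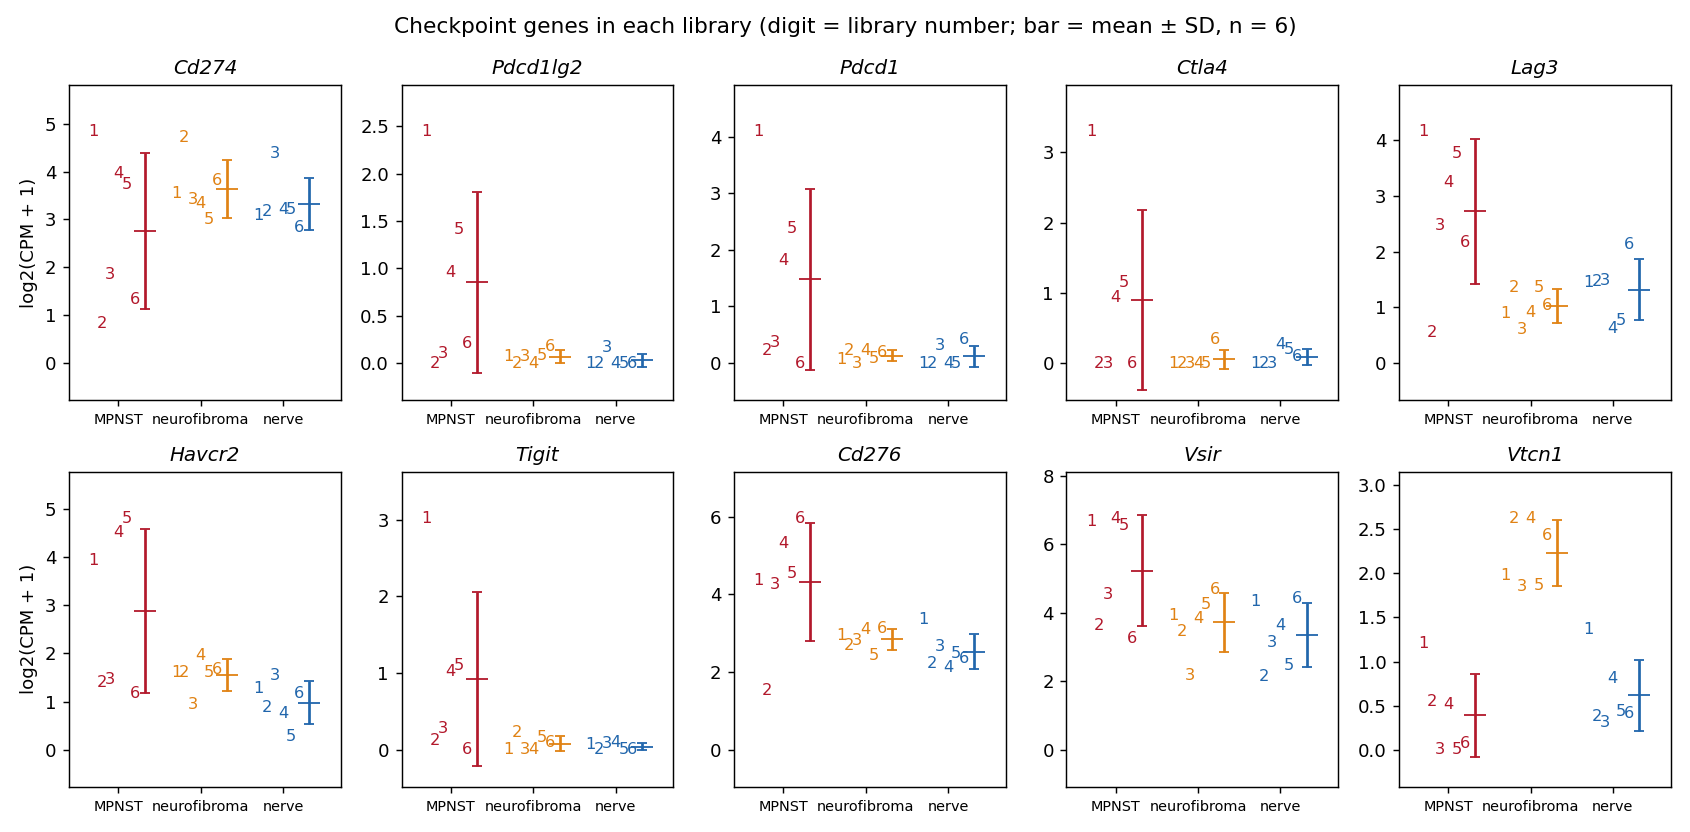
Level of each of the 10 genes in each library, as log2(CPM + 1), with MPNST at the left, neurofibroma in the middle and nerve at the right of each panel; digits are library numbers and bars show the mean ± SD (n = 6). MPNST 1, 4 and 5 lie high for most genes, and for Vtcn1 all 6 neurofibroma libraries lie above all others.

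The T cell receptors Pdcd1, Ctla4 and Tigit were carried mostly by one MPNST library. Pdcd1 stood at 16.1, 0.169, 0.281, 2.53, 4.18 and 0 CPM in MPNST 1 to 6, at most 0.173 CPM in neurofibroma and at most 0.327 CPM in nerve. MPNST 1, 4 and 5 thus lay above every trigeminal library, while MPNST 2, 3 and 6 held 4, 4 and 0 counts. Ctla4 stood at 8.84, 0, 0, 0.902, 1.22 and 0 CPM in MPNST, at most 0.261 CPM in neurofibroma and at most 0.203 CPM in nerve. Tigit, whose product binds CD155 (Pvr) and competes with the activating receptor CD226, stood at 7.13 CPM in MPNST 1 and at 1.03 and 1.15 CPM in MPNST 4 and 5. The other 3 MPNST libraries held at most 0.211 CPM of Tigit, neurofibroma at most 0.173 CPM and nerve at most 0.0676 CPM. The same 3 MPNST libraries, 1, 4 and 5, were high for all 3 receptors, and library 1 was the highest each time.

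Counts behind these receptors were few outside MPNST. Over 6 libraries Pdcd1 had 408 counts in MPNST, 10 in neurofibroma and 9 in nerve, and MPNST 1 alone gave 283 of the MPNST counts. With no filter on low counts, where 21.2% of 34491 genes were called, the log2 change between MPNST and neurofibroma was 5.12 for Pdcd1 (SE 1.32, adjusted p = 0.0154), 5.14 for Ctla4 (SE 1.73, adjusted p = 0.04996) and 4.53 for Tigit (SE 1.33, adjusted p = 0.0278). Leaving out MPNST 1 from that fit took Ctla4 to 3.08 (adjusted p = 0.159) and Tigit to 2.95 (adjusted p = 0.0808), which ended both calls, and took Pdcd1 to 3.74 (adjusted p = 0.0356). Between MPNST and nerve, where 23.8% of 34204 genes were called, the unfiltered edgeR fit called Pdcd1 (log2 change 5.19, adjusted p = 0.0261) and Tigit (adjusted p = 0.0121) and did not call Ctla4 (log2 change 4.54, adjusted p = 0.0561). Without MPNST 1 Pdcd1 missed the threshold against nerve (3.79, adjusted p = 0.0658), as did Ctla4 (2.47, adjusted p = 0.203), and Tigit passed it (adjusted p = 0.0291). Fitted changes of genes this low depend on the constant that edgeR adds to small counts, and the sums above show the scale of the data more directly.

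T cell markers moved with these receptors. The 13 T cell genes summed to 487, 3.47, 9.48, 138, 128 and 3.62 CPM in MPNST 1 to 6, to 8.25 to 17.5 CPM in neurofibroma and to 5.66 to 13.7 CPM in nerve. The sums in MPNST 1, 4 and 5 lay above every trigeminal library, and those in MPNST 2 and 6 below every one. The rank of MPNST 2 rests on unscaled totals, since its TMM factor was 0.436, against 1.03 in nerve 5, the lowest trigeminal library. Cd3e, a chain of the T cell receptor complex, was at 55.3, 0.127, 0.562, 2.06, 6.48 and 0.105 CPM in MPNST 1 to 6, and Foxp3, which marks regulatory T cells, reached 7.82 CPM in MPNST 1 and at most 1.51 CPM in any other MPNST library. Per 1000 CPM of T cell markers, Pdcd1 had a median of 31.1 CPM in MPNST (range 0 to 48.8), 6.70 CPM in neurofibroma (0 to 21.0) and 0 CPM in nerve (0 to 29.4), so the ranges overlapped. In bulk tissue, more cells of a type and more RNA per cell cannot be told apart, and the part of T cell number in these levels was not tested. Ctla4 lies between Cd28 and Icos on chromosome 1, which encode related costimulatory receptors. Cd28 reached 21.7 CPM and Icos 20.6 CPM in MPNST 1, against at most 3.82 and 3.10 CPM in the other MPNST libraries.

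Lag3, a receptor that binds MHC class II and fibrinogen-like protein, rose in MPNST against both trigeminal groups. It stood at 16.9, 0.465, 4.56, 8.5, 12.5 and 3.46 CPM in MPNST 1 to 6. In neurofibroma the lowest, median and highest values were 0.511, 0.963 and 1.57 CPM, and in nerve 0.541, 1.75 and 3.40 CPM. MPNST 1, 3, 4, 5 and 6 lay above every neurofibroma and nerve library and MPNST 2 below every one, although with TMM-scaled totals MPNST 2 stood at 1.22 CPM, inside the neurofibroma range. The log2 change was 2.88 against neurofibroma (SE 0.553, adjusted p = 0.00186) and 2.25 against nerve (SE 0.602, adjusted p = 0.00984). In the unfiltered fit without MPNST 1 the change against nerve was 1.77 and missed the threshold (adjusted p = 0.0603). With the filter it was 1.92 without MPNST 1, and the edgeR call against nerve held on leaving out each library in turn (adjusted p at most 0.0253). Per 1000 CPM of T cell markers, Lag3 stood at 34.8, 134, 481, 61.5, 97.9 and 957 CPM in MPNST 1 to 6 (median 116), at 48.6 to 189 CPM in neurofibroma (median 65.2) and at 67.8 to 306 CPM in nerve (median 150). MPNST 3 and 6, whose summed T cell markers were no higher than in the trigeminal samples, lay above both of those ranges, and MPNST 1 lay below both. Per 1000 CPM of macrophage markers, Lag3 had a median of 3.50 CPM in MPNST (range 1.30 to 11.1), 2.56 CPM in neurofibroma (1.83 to 4.38) and 7.08 CPM in nerve (2.99 to 25.6), so all 3 groups overlapped. Lag3 lies beside Cd4 on chromosome 6, and Cd4 was at 0.0702 CPM in MPNST 3 and 2.41 CPM in MPNST 6. Which cells carried Lag3 in those libraries was not tested.

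**Figure D2:**
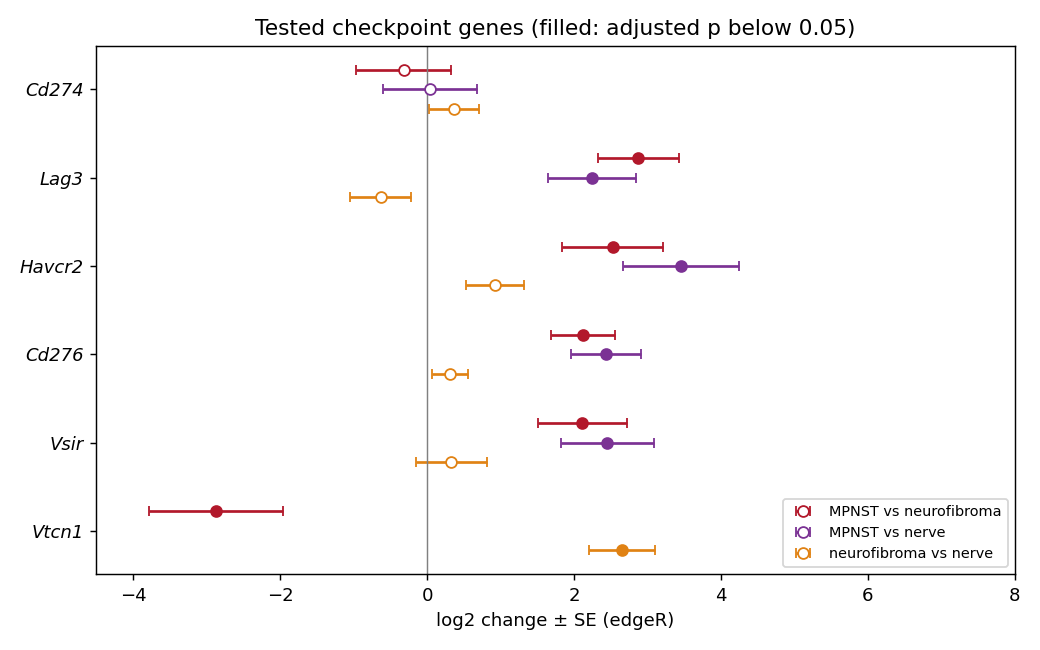
Log2 change ± SE of the 6 tested genes from edgeR, with MPNST over neurofibroma, MPNST over nerve and neurofibroma over nerve drawn from top to bottom for each gene; filled points have an adjusted p below 0.05. Lag3, Havcr2, Cd276 and Vsir lie at 2.11 to 3.46 in the MPNST comparisons, Cd274 lies near 0, and Vtcn1 lies at -2.87 and 2.66.

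Havcr2, encoding TIM-3, was high in the same 3 tumours as the T cell receptors. Its levels were 14.1, 1.65, 1.76, 21.6, 27.0 and 1.26 CPM in MPNST 1 to 6, with 0.920, 2.04 and 2.86 CPM as the lowest, median and highest in neurofibroma and 0.210, 1.04 and 1.90 CPM in nerve. MPNST 1, 4 and 5 lay above every other library and the remaining 3 inside the neurofibroma range, though with TMM-scaled totals MPNST 2, at 4.32 CPM, lay above it. Havcr2 rose by 2.53 on the log2 scale against neurofibroma (SE 0.688, adjusted p = 0.0118) and by 3.46 against nerve (SE 0.785, adjusted p = 0.0041). Without MPNST 2, 3 and 6 the changes were 3.31 and 4.23.

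Vsir, encoding VISTA, had the same pattern. Its levels were 101, 11.3, 22.1, 108, 92.5 and 8.49 CPM in MPNST 1 to 6, with 3.48, 13.8 and 24.8 CPM as the lowest, median and highest in neurofibroma and 3.44, 9.63 and 20.5 CPM in nerve. Levels in MPNST 1, 4 and 5 were more than 3 times those of any trigeminal library, and MPNST 2, 3 and 6 lay inside the neurofibroma range, though with TMM-scaled totals MPNST 2 and 3, at 29.7 and 23.9 CPM, lay above its highest value of 23.8 CPM. Vsir rose against neurofibroma (log2 change 2.11, SE 0.602, adjusted p = 0.0148) and against nerve (2.46, SE 0.636, adjusted p = 0.00826). In the unfiltered fit without MPNST 1 the change against neurofibroma was 1.79 and missed the threshold (adjusted p = 0.0604). With the filter, the edgeR call against neurofibroma held on leaving out each library in turn, MPNST 1 included (adjusted p at most 0.0345). Vsir lies inside Cdh23 on the opposite strand, with 0 shared exon bases in the GENCODE annotation used, and Cdh23 reached 4.56 CPM in MPNST and 6.55 CPM in nerve.

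Macrophage markers moved with both genes. Summed over 16 genes they stood at 3800, 359, 799, 3330, 5170 and 311 CPM in MPNST 1 to 6, at 211 to 480 CPM in neurofibroma and at 69.2 to 318 CPM in nerve. All 16 were called higher in MPNST than in neurofibroma, where 25.3% of all tested genes were called higher. Against nerve 15 of the 16 were called higher, where 27.6% of all tested genes were. The median log2 change of the 16 against neurofibroma was 2.62 beside 0.22 for all genes, and none was at 0 in any library. Csf1r, the receptor for the macrophage growth factor CSF1, was at 253, 28.2, 56.0, 370, 384 and 19.1 CPM in MPNST 1 to 6. Per 1000 CPM of macrophage markers, Havcr2 had a median of 4.32 CPM in MPNST (range 2.20 to 6.49), 5.59 CPM in neurofibroma (4.37 to 6.49) and 5.04 CPM in nerve (1.86 to 12.1). Vsir had 27.4 CPM per 1000 CPM of those markers in MPNST (17.9 to 32.5), 36.6 CPM in neurofibroma (16.5 to 55.9) and 56.5 CPM in nerve (25.5 to 87.4). Set against macrophage RNA in this way, the 3 groups overlapped for both genes and neither was higher in MPNST at the median.

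**Figure D3:**
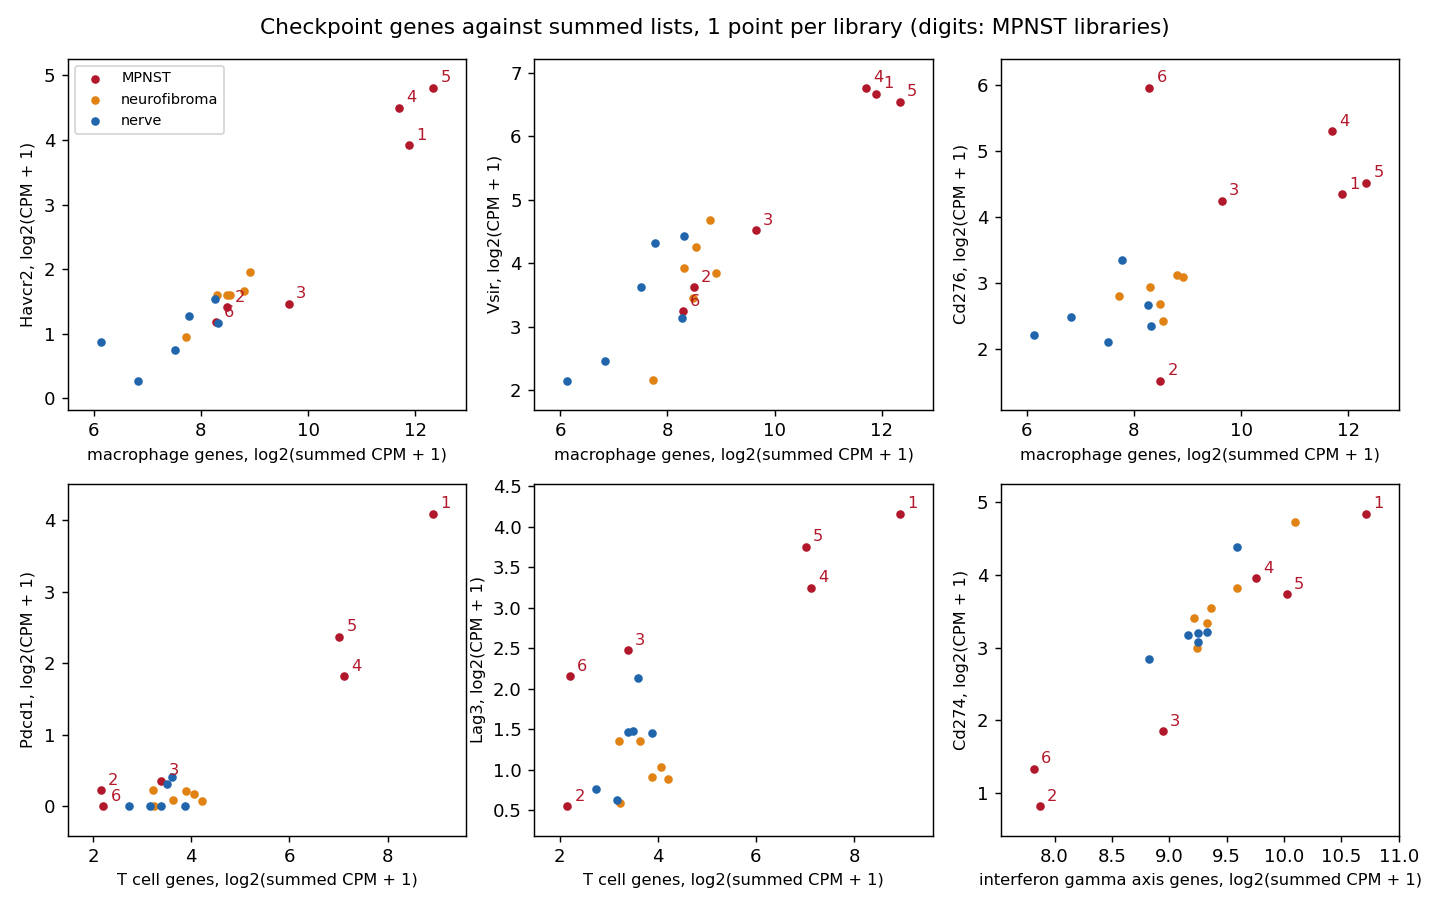
Each point is 1 library, with the summed level of a marker or pathway list on the x axis and 1 checkpoint gene on the y axis, both as log2 of CPM plus 1; digits name MPNST libraries. MPNST 1, 4 and 5 are high on both axes for Havcr2 and Vsir, MPNST 6 stands apart for Cd276, and the highest Cd274 library of each group is also the highest for the interferon gamma genes.

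Cd274, encoding PD-L1, spanned a wide range in MPNST and was called in no comparison. Its levels were 27.7, 0.761, 2.6, 14.5, 12.3 and 1.52 CPM in MPNST 1 to 6, 10.7, 25.4, 9.61, 9.13, 6.94 and 13.1 CPM in neurofibroma 1 to 6, and 7.44, 8.02, 19.9, 8.31, 8.18 and 6.15 CPM in nerve 1 to 6. MPNST 2, 3 and 6 lay below every trigeminal library and MPNST 1 above every one. The log2 change was -0.32 against neurofibroma (SE 0.643, adjusted p = 0.712) and 0.04 against nerve (SE 0.642, adjusted p = 0.968), so changes of the size seen for Havcr2 lie well outside these errors while smaller ones in either direction do not. Without MPNST 2, 3 and 6 the values were 0.48 against neurofibroma (adjusted p = 0.331) and 0.84 against nerve (adjusted p = 0.0961). Per 1000 CPM of macrophage markers Cd274 ran from 2.12 to 7.29 CPM in MPNST, from 18.7 to 71.3 CPM in neurofibroma and from 19.3 to 116 CPM in nerve, and MPNST did not overlap either group. In the annotation used, 511 of the 3622 exon bases of Cd274 are shared with an antisense transcript, so its counts rest on the strand setting of the counting, which is not given in the sources used here.

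Within groups, the summed interferon gamma genes and Cd274 peaked in the same libraries. The 13 listed genes summed to 1680, 233, 491, 861, 1040 and 225 CPM in MPNST 1 to 6, to 595 to 1090 CPM in neurofibroma and to 453 to 770 CPM in nerve. The highest library of each group, MPNST 1, neurofibroma 2 and nerve 3, was also the highest for Cd274, and MPNST 2, 3 and 6 were the 3 lowest MPNST libraries for both. Jak1 alone averaged 155 CPM in MPNST, 312 CPM in neurofibroma and 361 CPM in nerve, a large part of these sums. Between MPNST and nerve 6 of the 12 tested genes of the list were called higher, 1 was called lower and 5 were not called. Of all genes 27.6% were called higher there, and Cd274 was not called. Of 16441 genes compared over the 18 libraries, Cyp4v3, a lipid-metabolizing cytochrome, had the profile most like that of Cd274. Likeness was measured as the root mean square difference of log2(CPM + 1) centred on each gene's mean, and was 0.489 for Cyp4v3. Cyp4v3 averaged 16.7 ± 13.8 CPM in MPNST, 23.9 ± 3.73 CPM in neurofibroma and 18.2 ± 1.76 CPM in nerve (SD, n = 6 each). Ifng itself was at 1.31 CPM in MPNST 1 and at 0.432 CPM or less elsewhere, so the cytokine was hardly detectable at this depth.

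Pdcd1lg2, the neighbour of Cd274 on chromosome 19 and the other PD-1 ligand, was low. It stood at 4.45, 0, 0.0702, 0.945, 1.66 and 0.157 CPM in MPNST 1 to 6, at most 0.131 CPM in neurofibroma and at most 0.119 CPM in nerve. Summed over 6 libraries it had 127 counts in MPNST, 5 in neurofibroma and 2 in nerve. All trigeminal libraries lay below MPNST 1, 4 and 5. The unfiltered edgeR fit gave a log2 change of 4.34 against neurofibroma (SE 1.19, adjusted p = 0.0205), and 3.27 without MPNST 1 (adjusted p = 0.0496).

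Cd276, encoding B7-H3, rose in MPNST against both trigeminal groups, with MPNST 6 as its highest library. It stood at 19.4, 1.86, 18, 38.6, 22 and 61.4 CPM in MPNST 1 to 6. The lowest, median and highest were 4.37, 6.31 and 7.71 CPM in neurofibroma and 3.31, 4.34 and 9.18 CPM in nerve. All MPNST libraries but MPNST 2 lay above every trigeminal library, MPNST 6 was the highest, and MPNST 2 was the lowest of all 18, though at 4.88 CPM with TMM-scaled totals it fell inside the neurofibroma range. Cd276 rose by 2.13 on the log2 scale against neurofibroma (SE 0.436, adjusted p = 0.00269) and by 2.44 against nerve (SE 0.474, adjusted p = 0.00176). Leaving out each library in turn kept the change at 1.76 to 2.36 and at 2.07 to 2.67. In MPNST 6 macrophage markers were the lowest of the MPNST and T cell markers summed to 3.62 CPM. Per 1000 CPM of macrophage markers, Cd276 had a median of 8.40 CPM in MPNST (range 4.26 to 198), 16.5 CPM in neurofibroma (11.8 to 28.4) and 29.6 CPM in nerve (12.8 to 52.6). MPNST 6 was the library at 198 CPM and MPNST 1, 2, 4 and 5 lay below every neurofibroma library, so on this scale Cd276 was not higher in MPNST at the median. Its 2 nearest profiles were Cdca4, a cell division gene (0.334), and 1110038B12Rik (0.344). Of its 3658 exon bases, 416 are shared with the antisense gene Gm10657, which reached at most 0.458 CPM in any library.

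Vtcn1, encoding B7-H4, was the member with the clearest split in the benign tumours. It stood at 1.31, 0.465, 0, 0.429, 0 and 0.0524 CPM in MPNST 1 to 6, at 2.94, 5.14, 2.61, 5.17, 2.62 and 4.38 CPM in neurofibroma 1 to 6, and at 1.58, 0.295, 0.237, 0.744, 0.350 and 0.327 CPM in nerve 1 to 6. Every neurofibroma library lay above every library of the other 2 groups. The log2 change was 2.66 in neurofibroma against nerve (SE 0.449, adjusted p = 0.00459) and -2.87 in MPNST against neurofibroma (SE 0.911, adjusted p = 0.024). Vtcn1 had 405 counts in neurofibroma, 45 in MPNST and 62 in nerve, so it passed the filter on low counts mainly through neurofibroma. The unfiltered edgeR fits also called it, at 2.66 against nerve (adjusted p = 0.00655) and -3.00 in MPNST against neurofibroma (adjusted p = 0.0407). The call in neurofibroma was lost in 1 fit of all 18 samples (2.68, adjusted p = 0.346), where only 2 genes were called in that comparison. MPNST and nerve overlapped, and with no filter their log2 difference was -0.39 (adjusted p = 0.78). Summed Schwann cell markers were also higher in neurofibroma, at 6550 to 11100 CPM, than in MPNST, at 67.2 to 1350 CPM, and than in nerve, at 2820 to 6630 CPM, and their part in the Vtcn1 level was not tested. Gm1992 (0.464) and the thromboxane receptor gene Tbxa2r (0.469) had the nearest profiles.

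The other members did not differ between neurofibroma and nerve past the threshold. The log2 change was 0.37 for Cd274 (adjusted p = 0.487), -0.63 for Lag3 (adjusted p = 0.316), 0.93 for Havcr2 (adjusted p = 0.13), 0.32 for Cd276 (adjusted p = 0.396) and 0.33 for Vsir (adjusted p = 0.677). For Havcr2, 5 of 6 neurofibroma libraries lay above all nerve libraries. A missed threshold does not show equal levels.

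Promoter sequence is shown side by side for the 5 members that the results turn on (Cd274, Havcr2, Vsir, Cd276 and Vtcn1). They were not sorted by marker list. MPNST 1, 4 and 5 were the highest MPNST libraries for Havcr2, Vsir and Cd274, and for both the macrophage and the interferon gamma sums. RefSeq sequences of build GRCm38.p6, from 250 bases before to 50 after the gene start, were found for 9 of 10 members, not for Lag3. Each is printed along the strand of its gene, and capitals mark motif matches on either strand, with positions given for the leftmost base of a match, counted from the gene start.
Cd274, chr19:29367188-29367487, plus strand: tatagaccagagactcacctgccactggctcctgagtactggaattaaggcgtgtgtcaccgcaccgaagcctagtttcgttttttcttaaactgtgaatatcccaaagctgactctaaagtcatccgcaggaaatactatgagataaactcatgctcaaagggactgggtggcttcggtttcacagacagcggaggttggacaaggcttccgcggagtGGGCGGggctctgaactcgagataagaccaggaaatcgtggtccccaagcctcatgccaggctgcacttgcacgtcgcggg
Havcr2, chr11:46454681-46454980, plus strand: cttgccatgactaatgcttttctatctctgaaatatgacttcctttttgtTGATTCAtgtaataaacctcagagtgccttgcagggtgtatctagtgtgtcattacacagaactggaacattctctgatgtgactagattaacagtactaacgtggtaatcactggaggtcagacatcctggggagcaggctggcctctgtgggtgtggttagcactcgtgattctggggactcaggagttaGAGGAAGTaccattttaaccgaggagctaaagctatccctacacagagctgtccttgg
Vsir, chr10:60346601-60346900, plus strand: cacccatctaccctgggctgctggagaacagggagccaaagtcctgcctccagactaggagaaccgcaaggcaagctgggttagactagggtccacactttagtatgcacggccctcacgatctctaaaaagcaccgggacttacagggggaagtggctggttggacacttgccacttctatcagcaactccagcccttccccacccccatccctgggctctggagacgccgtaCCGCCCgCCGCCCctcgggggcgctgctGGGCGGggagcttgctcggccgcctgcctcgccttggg
Cd276, chr9:58554984-58555283, minus strand: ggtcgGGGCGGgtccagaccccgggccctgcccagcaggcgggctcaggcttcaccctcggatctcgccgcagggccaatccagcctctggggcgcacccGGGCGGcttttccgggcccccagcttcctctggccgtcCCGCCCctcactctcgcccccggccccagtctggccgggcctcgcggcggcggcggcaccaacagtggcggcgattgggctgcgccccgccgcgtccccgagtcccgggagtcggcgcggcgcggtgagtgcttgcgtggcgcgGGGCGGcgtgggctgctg
Vtcn1, chr3:100825209-100825508, plus strand: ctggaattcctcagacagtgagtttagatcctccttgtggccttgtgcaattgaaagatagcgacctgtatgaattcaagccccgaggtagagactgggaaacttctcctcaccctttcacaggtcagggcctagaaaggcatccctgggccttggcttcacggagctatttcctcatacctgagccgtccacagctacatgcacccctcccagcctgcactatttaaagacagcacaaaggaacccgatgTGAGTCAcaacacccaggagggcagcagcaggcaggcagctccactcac
The motifs reported are an interferon regulatory factor site (GAAA, any 2 bases, GAAA), a kappaB site (GGGA, any base, TTTCC), AP-1 (TGANTCA), a GC box (GGGCGG), a PU.1 site (GAGGAAGT) and a TATA box (TATAAA). Havcr2 held a PU.1 match at position -8 and an AP-1 match at -200, PU.1 being the lineage factor of macrophages. Vsir, which was also set against macrophage markers, held no PU.1 match. Whether any match bears on expression was not tested. Of 32851 promoters of the same length, 3.20% held the PU.1 letters and 7.81% the AP-1 letters. Vsir held 3 GC boxes and Cd276 held 4, while 35.7% of all promoters held at least 1, and 78.3% of the Cd276 window was G or C, more than in 98.2% of promoters. Cd274 held 1 GC box at -31. Vtcn1 held an AP-1 match at position 1. None of the 9 windows held the letters of the interferon regulatory factor or kappaB motif, which occurred in 3.44% and 0.411% of all promoters. This says only that these letters are not in these windows.

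**Figure D4:**
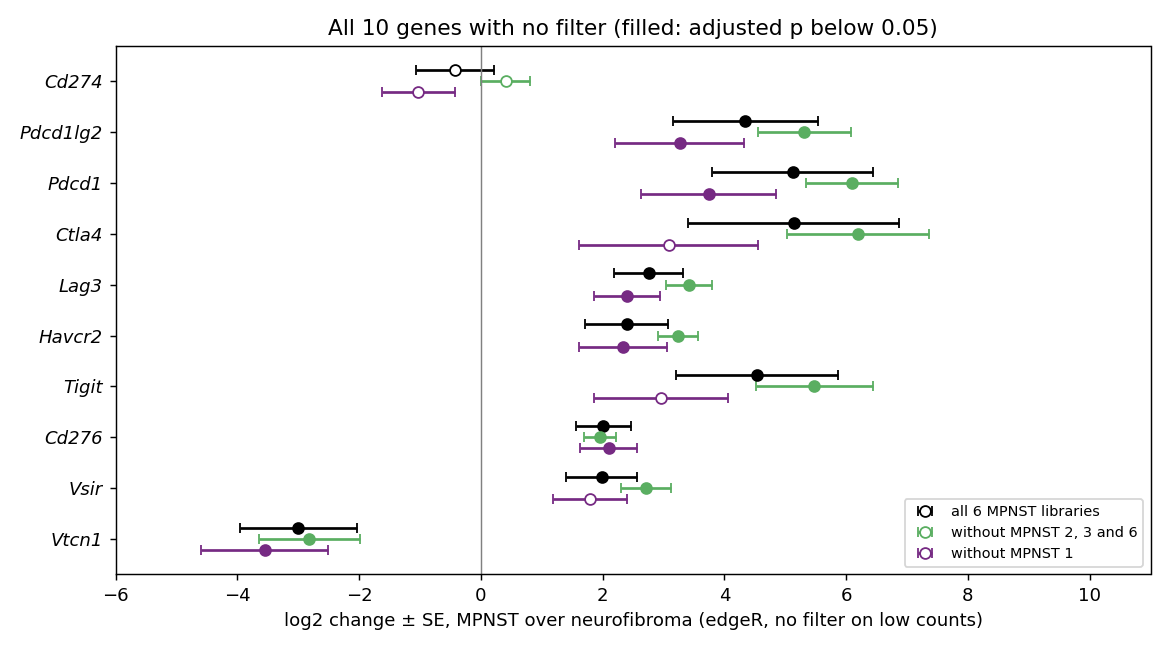
Log2 change ± SE of all 10 genes between MPNST and neurofibroma from edgeR with no filter on low counts, with all MPNST libraries, without MPNST 2, 3 and 6, and without MPNST 1; filled points have an adjusted p below 0.05. Ctla4, Tigit and Vsir lose their call without MPNST 1, at 3.08, 2.95 and 1.79, and Cd274 stays uncalled throughout.

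The partners of the members were followed as a list of 22 ligands, receptors and cofactors. Between MPNST and neurofibroma 16 were tested, 7 were called higher and 0 lower, where 42.0% of all tested genes were called and 25.3% were called higher, with a median log2 change of 0.81 beside 0.22 for all genes. The 7 were the CTLA-4 and CD28 ligands Cd80 (2.28, adjusted p = 0.0387) and Cd86 (2.55, adjusted p = 0.0221), the ICOS ligand Icosl (2.07, adjusted p = 0.00965), the TIGIT ligand Pvr (1.47, adjusted p = 0.0127), the TIM-3 ligand Hmgb1 (0.75, adjusted p = 0.0151), the LAG-3 ligand Lgals3 (1.98, adjusted p = 0.025) and the VISTA ligand Selplg (3.04, adjusted p = 0.0119). Cd86 was at 25.6, 1.90, 3.09, 21.3, 60.1 and 1.15 CPM in MPNST 1 to 6, against 1.69 to 5.42 CPM in neurofibroma. Selplg was at 76.9, 7.31, 9.83, 25.5, 159 and 1.57 CPM in MPNST 1 to 6, against 3.37 to 8.36 CPM in neurofibroma. For both genes the highest libraries were again MPNST 1, 4 and 5. The same 7 genes were the ones called between MPNST and nerve, of 17 tested, where 46.0% of all genes were called. Between neurofibroma and nerve 2 of 15 were called higher, beside 13.9% of all genes called in either direction, namely Igsf11, a VISTA ligand (0.86, adjusted p = 0.00704), and Cmtm6, which stabilizes PD-L1 at the cell surface (0.62, adjusted p = 0.0316).

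Other inhibitory receptor pairs, costimulatory molecules and signalling genes were listed as well. Of 17 genes of other inhibitory pairs, 12 were tested between MPNST and neurofibroma and 6 were called, all higher, beside 42.0% of all genes called and 25.3% called higher. The smallest p belonged to Cd200r1, a myeloid receptor for CD200 (log2 change 3.88, adjusted p = 0.00234). Of the 6 signalling genes downstream of the receptors, 5 were called higher and 1 lower. Ptpn6, the SHP-1 phosphatase of blood cells, rose by 3.31 (adjusted p = 0.00143), and Ptpn11, the widely expressed SHP-2, fell by 0.45 (adjusted p = 0.0365). Ptpn6 averaged 55.3 ± 52.7 CPM in MPNST and 6.04 ± 1.27 CPM in neurofibroma, and Ptpn11 averaged 118 ± 51.0 CPM in MPNST and 182 ± 11.8 CPM in neurofibroma (SD, n = 6 each). Of the 13 interferon gamma genes, 12 were tested and 4 were called higher, beside 25.3% of all genes called higher, led by Ciita, the master regulator of MHC class II (3.43, adjusted p = 0.0136). Against nerve, where 27.6% of all genes were called higher, 6 of these were called higher and 1 lower, the kinase gene Jak1 (log2 change -0.94, adjusted p = 0.0312). In neurofibroma against nerve, where 7.94% of all genes were called higher, 2 were called higher, the chemokine gene Cxcl10 (1.57, adjusted p = 0.0203) and the receptor gene Ifngr1. Ifngr1 stood at 47.5, 44.4, 40.3, 49.0, 42.5 and 57.0 CPM in neurofibroma 1 to 6, against 30.4 to 33.1 CPM in nerve, with no overlap (log2 change 0.57, adjusted p = 0.00255).

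Profiles near the other members were found in the same way. Havcr2 was nearest to Milr1, a mast cell and myeloid receptor (0.286), and Tlr13, a receptor for bacterial RNA (0.311). Milr1 averaged 8.44 ± 9.15 CPM in MPNST, 1.34 ± 0.616 CPM in neurofibroma and 0.471 ± 0.309 CPM in nerve (SD, n = 6 each). Vsir was nearest to Dapp1, an adaptor of immune cells (0.507), and Hpgds, a prostaglandin D synthase (0.526). Lag3 was nearest to the histone deacetylase gene Hdac7 (0.366) and to Cd93 (0.369), and Pdcd1 to Gpr18 (0.174) and Gm8369 (0.201). These are descriptions over 18 libraries that share depth and tissue makeup.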

How the data were processed

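Per the labels' protocols, column-purified RNA of 18 samples went into a stranded mRNA library kit. The authors deposited estimated counts per gene with no normalization. The tools named are FastQC, Salmon 1.4.0 and DESeq2, with the build GRCm39 (per the submitters' processing notes). No source used here gives Salmon's settings or the annotation, and 0 value columns lacked a sample. Estimated counts were rounded to whole numbers. Each pair of groups had its own edgeR 4.0.16 quasi-likelihood fit (R 4.3.3; TMM scaling, genes kept by filterByExpr, two-sided glmQLFTest), with Benjamini-Hochberg adjustment over all tested genes and a call at an adjusted p below 0.05; SE was computed from the F value. The fit was checked on simulated counts. Groups came from the labels, and the labels say of the MPNST alone that they came from separate mice, so p-values of the trigeminal groups measure only the spread between these samples. No pair of columns was identical. Counting error alone is covered by the floor of 3 counts. Alternatives used RLE or upper quartile scaling, other filters, DESeq2 1.42.0, limma-voom (limma 3.58.1), 1 fit of all samples, left-out libraries and an adjusted p below 0.01. The members and the gene lists (211 entries, 210 found) were chosen with earlier results of these data known. Named genes were all members, the called partners, the called genes with the smallest p of each list, and the 2 nearest profiles per member averaging at least 1 CPM over all libraries. Cd4, Cd28, Icos, Ifng, Cdh23 and Gm10657 were named after their values were seen. One nearest profile is not reported here. Sequences and neighbours came from RefSeq and GENCODE annotation of GRCm38, not the submitters' build, and levels were not compared between genes because lengths were not used.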

Additional observations from a re-analysis of the deposited data

Results flagged for a closer look

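In 10 of the 30 sets of 6 libraries checked (10 genes in 3 groups), 1 library stood further from the rest than Dixon's 95% critical value for the gap over the range. The rate of about 1 in 20 holds for normally distributed values. These were CPM without logs, some sets were mostly 0, and a set with a lone library above 0 is always flagged. The number of flags therefore cannot be set against that rate. In MPNST 1, Pdcd1 stood at 16.1 CPM (next highest 4.18), Ctla4 at 8.84 (1.22), Tigit at 7.13 (1.15), Pdcd1lg2 at 4.45 (1.66) and Vtcn1 at 1.31 (0.465). Cd274 stood at 25.4 CPM in neurofibroma 2 (next 13.1) and at 19.9 CPM in nerve 3 (next 8.31). Cd276 stood at 9.18 CPM in nerve 1 (next 5.34). Ctla4 at 0.261 CPM in neurofibroma 6 and Pdcd1lg2 at 0.119 CPM in nerve 3 were each the lone library of its group with any count, at 4 and 2 counts.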

How the results depend on the processing

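Each result was recomputed under other normalizations, filters and tools and with libraries left out. Of the member changes that were called, all kept their direction under every setting. Members called between MPNST and neurofibroma numbered 2 of 6 at an adjusted p below 0.01 (Lag3 and Cd276) and 9 of 10 with no filter, without MPNST 2, 3 and 6, or with both, since low genes then enter. Under those 4 settings 24.6% (4063), 21.2%, 62.8% (11247) and 36.6% of all tested genes were called, against 42.0% (6948). Between MPNST and nerve members numbered 7 of 10 with no filter and 8 of 10 without MPNST 2, 3 and 6, filtered or not, where 23.8%, 62.4% and 37.0% of all genes were called, against 46.0%. At an adjusted p below 0.01, 4633 genes were called between MPNST and nerve and 520 between neurofibroma and nerve. Leaving out each library in turn gave 5, 4 and 1 called members every time. In 1 fit of all 18 samples 0 members were called between neurofibroma and nerve. The unfiltered fit without MPNST 1, added after seeing the data, ended the call of Vsir against neurofibroma (1.79) and of Lag3 against nerve (1.77, adjusted p = 0.0603). Cd274 changed sign without being called. Between MPNST and nerve it was -0.034 with RLE, -0.070 with no filter, -0.035 with DESeq2, -0.68 with no filter and without MPNST 1, and -0.54 to 0.34 on leaving out each library. Between MPNST and neurofibroma it was 0.20 with limma-voom, 0.48 without MPNST 2, 3 and 6 (0.40 with no filter) and 0.16 without MPNST 2 and 6. Genes called between neurofibroma and nerve numbered 2295, 1438 with no filter, 3509 with DESeq2, 4026 with limma-voom, 2 in 1 fit of all samples, whose shared spread includes that of the MPNST, and 1147 to 3817 on leaving out each library. With limma-voom 48.3% of calls between MPNST and neurofibroma were higher, against 60.1%. The causes of these differences between tools were not tested. No paired analysis was possible because the labels give no replicate numbers that groups share. Depth limits Pdcd1, Pdcd1lg2, Ctla4 and Tigit, which had 2 to 10 counts in all over each trigeminal group.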

Other observations

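Costimulatory members of the TNF family were mostly too low to test, and Tnfsf18 and Tnfrsf9 were chosen after their values were seen. Tnfsf18, encoding the ligand of GITR, was at 33.5, 1.44, 0.913, 5.37, 6.05 and 0.157 CPM in MPNST 1 to 6 and at 0 counts in every neurofibroma and nerve library, where 3 counts would be at most 0.210 CPM. Tnfrsf9, encoding the T cell activation receptor 4-1BB, was at 6.90, 0.296, 0.421, 6.27, 13.8 and 7.07 CPM in MPNST 1 to 6, at most 0.231 CPM in neurofibroma and at most 0.255 CPM in nerve. All 6 MPNST libraries thus lay above all trigeminal libraries for Tnfrsf9, MPNST 6 included, where the T cell markers summed to 3.62 CPM. MPNST 2 and 3 held only 7 and 6 counts, against at most 4 in neurofibroma and 5 in nerve. Their place above the trigeminal libraries thus rests on few counts near the floor of 3. Of the 10 listed genes, 2 were tested between MPNST and neurofibroma and both were called higher, where 25.3% of all tested genes were called higher. Cd40, the receptor that activates antigen-presenting cells, had the smaller p (log2 change 4.18, adjusted p = 0.00358). It had 725 counts in MPNST and 40 in neurofibroma, so it passed the filter on low counts mainly through MPNST.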
